A study of Mus musculus with 6 samples.

Results

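Most of the proteins of a mitochondrion are encoded in the nucleus, made in the cytosol and carried through a chain of membrane translocases and chaperones, and the genes described here encode that chain. They were chosen by gene symbol: every symbol that starts with Timm or Tomm followed by a digit, with Samm50, the metaxins Mtx1, Mtx2 and Mtx3, Grpel1, Grpel2, Hspa9, Hspd1, Hspe1, Pmpca, Pmpcb, Dnajc19, Pam16, Chchd4 and Gfer. The rule found 41 of the 48432 genes in the table, of which 40 are protein-coding and 1, Tomm6os, is an antisense RNA. Of these, 39 were among the 16533 genes with enough counts to be tested. The set was proposed with the differences between the same libraries in view, so its counts are a description and no test was made over it.

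Livers of 10-week-old mice were profiled by RNA sequencing. The Li-KO group (3 libraries) is a knockout of Klf15, a Krüppel-like zinc finger transcription factor, restricted to the liver. The Ctl group (3 libraries) carried the Albumin-Cre transgene, in which the albumin promoter drives Cre recombinase in hepatocytes. Whether the Li-KO mice carried the same transgene, which exon was removed, and the sex, feeding state and time of day are not given in the labels. Libraries are numbered 0, 1 and 2 in each group, and since the labels do not say that they come from separate mice, their p-values reflect only how much these libraries vary.

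Precursors with an N-terminal presequence pass the outer membrane through the TOM complex and the inner membrane through the TIM23 complex, and are drawn into the matrix by the PAM motor around the chaperone mtHsp70. Carrier proteins are escorted by small Tim chaperones to the TIM22 complex, beta-barrel proteins are inserted by the SAM complex, and small cysteine-rich proteins are trapped in the intermembrane space by the disulfide relay MIA. In the matrix a peptidase removes the presequence and the chaperonin folds the product, steps that hepatocytes, which are rich in mitochondria, depend on for fuel oxidation, the urea cycle and ketone body formation.

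Levels are CPM, counts relative to a library total scaled for composition, given per library or as mean ± SD of a group's 3 libraries. A positive log2 fold change means a higher level in Li-KO than in Ctl. SE is its approximate standard error, worked back from the F statistic of edgeR's quasi-likelihood test. A gene is said to have risen or fallen where the Benjamini-Hochberg adjusted p of edgeR's quasi-likelihood test, over all genes tested, was under 0.05. Library totals were 30132496 to 42782324 fragments in Li-KO and 35454667 to 42433779 in Ctl. Klf15 itself, on the plus strand of chromosome 6 of mm10 (90462576 to 90475238), had 54.3, 41.6 and 51.8 CPM in Li-KO livers, against 345, 174 and 196 CPM in Ctl livers, and its log2 fold change was -2.28 (SE 0.26, edgeR adjusted p = 0.00275). Every Li-KO library lay below every Ctl library for the targeted gene. Of 33 markers of Kupffer cells, sinusoidal endothelium, stellate cells, lymphocytes and neutrophils, edgeR called 0 in either direction (2 higher and 3 lower at an unadjusted p under 0.05) and the DESeq2 Wald test called 1, lower. Among 6 hepatocyte markers edgeR called 1 lower, Tdo2, and among 6 cholangiocyte markers 1 lower, Sox9, while the DESeq2 Wald test called 1 higher and 1 lower in each list. The other cholangiocyte markers were mostly at higher values in Li-KO, without an edgeR call, and the list's median log2 fold change was 0.47: Epcam had 1.96 ± 0.224 CPM in Li-KO livers and 1.01 ± 0.165 CPM in Ctl livers, and Spp1 had 80.3 ± 55.4 CPM in Li-KO livers and 31.2 ± 12 CPM in Ctl livers. Cholangiocyte markers summed to 59.3 to 163 CPM in Li-KO livers and 44.9 to 77.0 CPM in Ctl livers, and their part in the results was not tested. Hepatocyte markers summed to 18819 to 22728 CPM in Li-KO livers and 16702 to 26872 CPM in Ctl livers. This sum leaves out Alb and Cyp2e1, 2 of the 8 markers listed, which Cuffdiff skipped as too abundant in at least 1 library. Erythroid markers summed to 296 to 593 CPM in Li-KO livers and 743 to 814 CPM in Ctl livers, with none at 0. In 5 of 7 genes every Li-KO library lay below every Ctl library, where 17.8% of all genes tested did so. Of these 7, edgeR called 0 (5 lower at an unadjusted p under 0.05) and the DESeq2 Wald test called 3 lower. Beside these marker counts, edgeR called 6.11% of all genes tested higher and 5.9% lower, and the DESeq2 Wald test 10.3% and 9.97%. At an unadjusted p under 0.05 edgeR gave 14.6% higher and 14.8% lower. The part of the erythroid markers in the results below was not tested. In whole liver, fewer cells of a type and less RNA per cell cannot be told apart.

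Of the 39 import genes tested, 12 rose in Li-KO livers, 0 fell and 27 were not called. Over all genes tested, 6.11% were called higher and 5.9% lower. Among protein-coding genes with a mean of at least 10 CPM, 8.98% were called higher, and in that range lay 34 of the import genes, 11 of them called. Because the set was proposed from this contrast, nothing is read from these shares. The 12 genes span nearly every stage of the route: Tomm5, Tomm40l, Tomm6 and Tomm7 of the outer membrane translocase, Samm50 of the sorting complex, Chchd4 of the disulfide relay, Timm9 and Timm13 among the small chaperones, Timm22 of the carrier translocase, Timm50 and Timm17a of the presequence translocase, and Grpel1 of the motor. They lie on 10 chromosomes. The matrix processing peptidase and the matrix chaperonin had no called member.

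The increases were small. Their fold ran from 1.40 to 2.58, and 10 of the 12 were under 2-fold. The median log2 fold change of the 39 genes was 0.28 (range -0.26 to 1.37), beside -0.01 over all genes tested, with 36 above 0 and 3 below. In 18 genes every Li-KO library lay above every Ctl library, and in 0 genes below, where 17.4% and 17.8% of all genes tested did so. The other 21 overlapped between the groups. The 6 genes that were apart but not called were Timm44, Pmpca, Mtx1, Tomm22, Timm17b and Timm8b. At an unadjusted p under 0.05 edgeR gave 16 higher and 0 lower, where 14.6% of all genes were higher and 14.8% lower. The DESeq2 Wald test called 14 higher and 0 lower after adjustment, where it called 10.3% of all genes with an adjusted p higher and 9.97% lower.

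**Figure D1:**
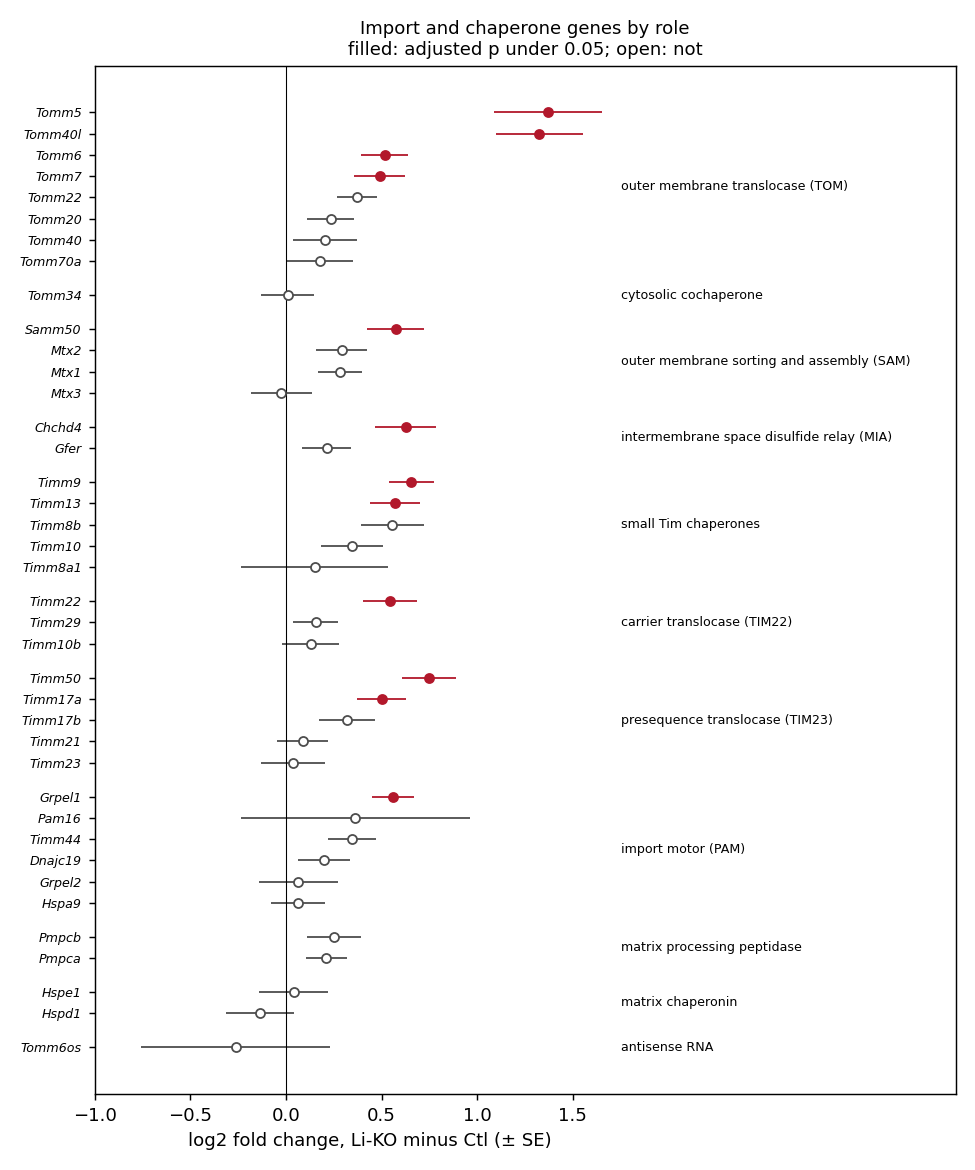
Log2 fold change, Li-KO minus Ctl, of the 39 import genes tested, grouped by role, with bars of 1 SE. Filled points are the 12 genes with an edgeR adjusted p under 0.05, all to the right of 0, and open points are the 27 that were not called; the chaperonin genes Hspd1 and Hspe1 lie next to 0.

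These calls rest on few libraries. With 1 library left out at a time, the fold change of each of the 12 genes stayed positive, but the number called was 5 without Li-KO replicate 0, 1 without Li-KO replicate 1, 9 without Li-KO replicate 2, 8 without Ctl replicate 0, 0 without Ctl replicate 1 and 1 without Ctl replicate 2. In the same order, the number of all genes called higher was 675, 226, 1102, 704, 198 and 255, against 1010 with all 6 libraries. Tomm40l and Timm9 kept their call in 4 of the 6 fits, and Timm22 and Tomm7 in 0. Ctl replicate 1 was the lowest of the Ctl libraries for 25 of the 39 genes. The same share over all genes was not counted, and its part in the lost calls was not tested.

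In the outer membrane translocase, Tomm5, Tomm40l, Tomm6 and Tomm7 rose and Tomm22, Tomm20, Tomm40 and Tomm70a did not pass the test. Tomm5 (ENSMUSG00000078713.8, chromosome 4, 45105208 to 45108114, minus strand) encodes a small subunit of the complex. It had 10.7, 8.09 and 7.58 CPM in Li-KO livers, against 4.53, 2.26 and 3.40 CPM in Ctl livers, from 332, 252 and 312 counts in Li-KO and 189, 84 and 128 in Ctl. Every Li-KO library lay above every Ctl library, and the log2 fold change of 1.37 (SE 0.28, edgeR adjusted p = 0.0215) was the largest of the 39. Tomm40l (ENSMUSG00000005674.9, chromosome 1, 171216011 to 171222514, minus strand) encodes a paralogue of the channel protein Tomm40. It had 43.5, 38.7 and 29.1 CPM in Li-KO livers, against 19.5, 11.6 and 13.3 CPM in Ctl livers, with a log2 fold change of 1.33 (SE 0.23, edgeR adjusted p = 0.0119). The groups did not overlap. Tomm40 itself, the channel, had 48.8, 51.4 and 33.9 CPM in Li-KO livers, against 38.6, 36.7 and 40.9 CPM in Ctl livers, and these overlapped (log2 fold change 0.21, SE 0.17, edgeR adjusted p = 0.452).

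The exons of Tomm40l share 3304 bases with exons of Nr1i3, a nuclear receptor gene on the opposite strand, which was looked at after the values were seen. The library kit marks strand, but no source used here says whether the counting used it, so fragments of both genes may be mixed. Nr1i3 had 65.8, 175 and 204 CPM in Li-KO livers, against 136, 211 and 246 CPM in Ctl livers, and was not called (log2 fold change -0.41, SE 0.38). In Li-KO replicate 0 Nr1i3 was at its lowest and Tomm40l at its highest.

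The other 2 small subunits of the translocase that rose did so by less. Tomm6 had 52.2, 56.7 and 47.8 CPM in Li-KO livers, against 39.3, 36.1 and 34.1 CPM in Ctl livers (log2 fold change 0.52, SE 0.12, edgeR adjusted p = 0.032). Tomm7 had 45.8, 45.0 and 48.1 CPM in Li-KO livers, against 34.8, 27.9 and 36.1 CPM in Ctl livers (log2 fold change 0.49, SE 0.13, edgeR adjusted p = 0.0477). Neither overlapped between the groups. Tomm6 shares 859 exonic bases with Gm21981 on its own strand, a gene at 1.68 CPM in Li-KO and 1.99 CPM in Ctl. The antisense RNA Tomm6os, which overlaps Tomm6 by 219 bases, had 0.879 ± 0.205 CPM in Li-KO livers and 1.06 ± 0.555 CPM in Ctl livers and was not called.

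Among the receptors, Tomm22 had 56.7, 55.5 and 54.9 CPM in Li-KO livers, against 44.4, 41.9 and 42.9 CPM in Ctl livers. The groups stood well apart, yet its log2 fold change of 0.37 (SE 0.10) had an edgeR adjusted p of 0.0529. Tomm20, a presequence receptor, had 46.6 ± 4.0 CPM in Li-KO livers and 39.6 ± 2.96 CPM in Ctl livers (log2 fold change 0.23, SE 0.12). Tomm70a, the receptor for carrier precursors, had 180, 224 and 263 CPM in Li-KO livers, against 178, 179 and 234 CPM in Ctl livers, so that replicate 2 was highest in both groups and the groups overlapped. Tomm20l, a paralogue of Tomm20, had 0 counts in all 6 libraries. Tomm34, a cytosolic cochaperone that shares the name but is no part of the complex, had 13.9 ± 0.784 CPM in Li-KO livers and 13.8 ± 0.852 CPM in Ctl livers (log2 fold change 0.01, SE 0.14).

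**Figure D2:**
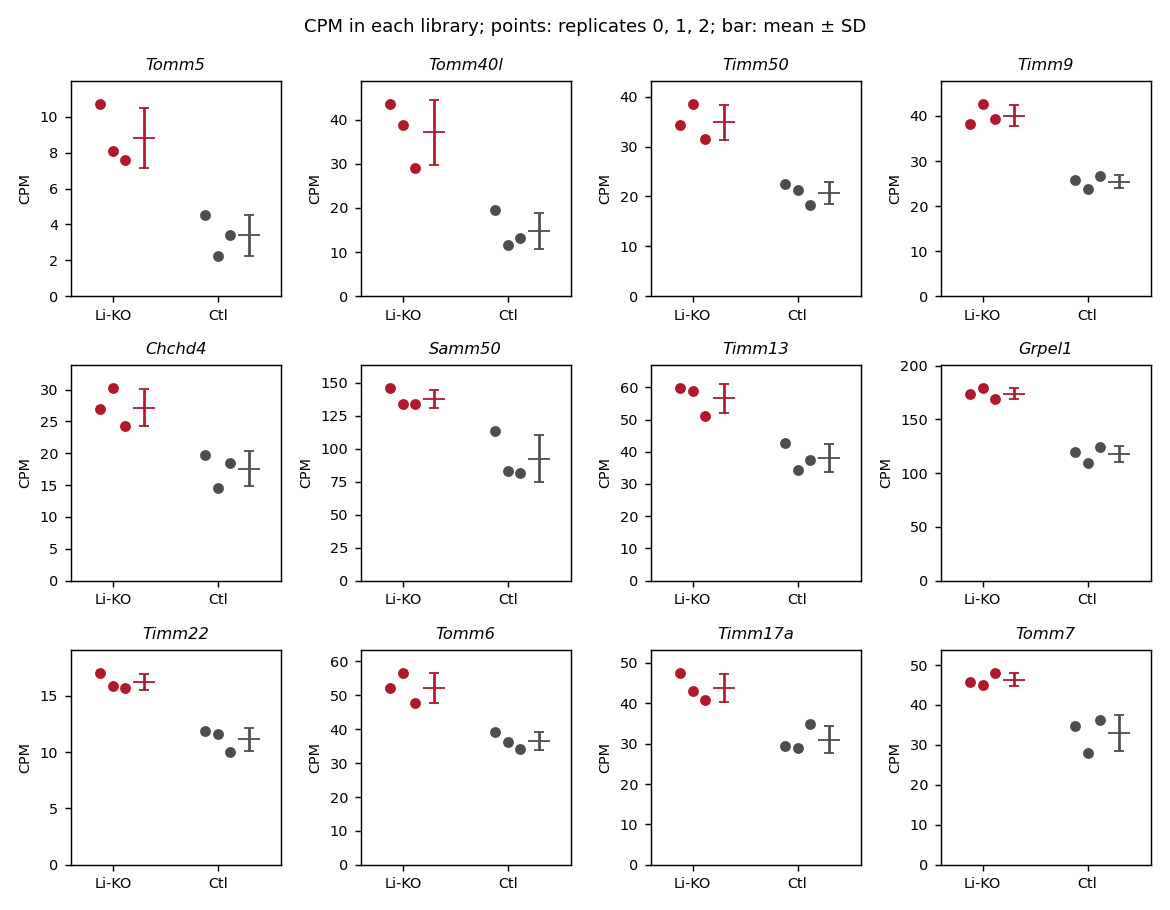
CPM of the 12 import genes that rose, 1 panel a gene, with each library as a point (replicates 0, 1 and 2 from left to right) beside the group's mean and SD. Each axis starts at 0; in every panel the 3 Li-KO points lie above the 3 Ctl points, with the largest fold in Tomm5 and Tomm40l.

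In the sorting and assembly complex, Samm50 (ENSMUSG00000022437.6, chromosome 15, 84192241 to 84217267, plus strand), the beta-barrel core, had 146, 134 and 134 CPM in Li-KO livers, against 113, 82.8 and 81.5 CPM in Ctl livers. Its log2 fold change was 0.57 (SE 0.15, edgeR adjusted p = 0.0424), with Ctl replicate 0 well above the other Ctl libraries. The metaxins, its partners at the cytosolic face, did not pass the test. Mtx1 had 37.5 ± 2.23 CPM in Li-KO livers and 30.9 ± 1.55 CPM in Ctl livers. Mtx2 had 59.1 ± 7.17 CPM in Li-KO livers and 48.2 ± 4.17 CPM in Ctl livers. Mtx3 had 29.5 ± 5.89 CPM in Li-KO livers and 30.0 ± 1.59 CPM in Ctl livers. Their log2 fold changes were 0.28 (SE 0.12), 0.29 (SE 0.13) and -0.02 (SE 0.16) in that order.

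The disulfide relay has a receptor oxidase, Chchd4, and the flavoprotein that reoxidises it, Gfer. Chchd4 (ENSMUSG00000034203.8, chromosome 6, 91462172 to 91473546, minus strand) had 27.0, 30.2 and 24.3 CPM in Li-KO livers, against 19.75, 14.5 and 18.5 CPM in Ctl livers (log2 fold change 0.63, SE 0.16, edgeR adjusted p = 0.0386). The groups did not overlap. It lies on the chromosome of Klf15, with its nearer end 986934 bases beyond that of Klf15. Gfer had 34.6 ± 2.77 CPM in Li-KO livers and 29.8 ± 2.80 CPM in Ctl livers, which overlapped (log2 fold change 0.21, SE 0.13).

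The small Tim proteins form hexamers that shield hydrophobic precursors in the intermembrane space, Timm9 with Timm10 and Timm8 with Timm13. Timm9 (ENSMUSG00000021079.15, chromosome 12, 71123173 to 71136684, minus strand) had 38.2, 42.6 and 39.4 CPM in Li-KO livers, against 25.8, 23.8 and 26.7 CPM in Ctl livers (log2 fold change 0.66, SE 0.12, edgeR adjusted p = 0.0139). Timm13 had 59.7, 58.8 and 51.3 CPM in Li-KO livers, against 42.7, 34.3 and 37.3 CPM in Ctl livers (log2 fold change 0.57, SE 0.13, edgeR adjusted p = 0.0295). Both stood apart between the groups. Timm8b had 41.4, 50.3 and 51.7 CPM in Li-KO livers, against 32.7, 26.5 and 38.3 CPM in Ctl livers, and its log2 fold change of 0.56 (SE 0.16) missed the threshold (edgeR adjusted p = 0.0599). Timm10 had 24.0, 25.4 and 18.8 CPM in Li-KO livers, against 16.2, 17.2 and 20.2 CPM in Ctl livers, which overlapped in 1 library (log2 fold change 0.35, SE 0.16). Timm8a1 was low, at 3.16 ± 1.40 CPM in Li-KO livers and 2.86 ± 0.672 CPM in Ctl livers, and Timm8a2 had 0, 4 and 0 counts in Li-KO and 0, 0 and 2 in Ctl.

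In the carrier translocase the channel subunit Timm22 had 17.05, 15.9 and 15.7 CPM in Li-KO livers, against 11.8, 11.6 and 9.97 CPM in Ctl livers (log2 fold change 0.54, SE 0.14, edgeR adjusted p = 0.0429). Its partners Timm29, at 64.4 ± 6.31 CPM in Li-KO livers and 57.8 ± 3.17 CPM in Ctl livers, and Timm10b, at 22.5 ± 2.22 CPM in Li-KO livers and 20.6 ± 2.95 CPM in Ctl livers, were not called.

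In the presequence translocase, Timm50 and Timm17a rose. Timm50 (ENSMUSG00000003438.17, chromosome 7, 28305516 to 28312072, minus strand), the receptor that takes precursors over from the outer membrane, had 34.4, 38.5 and 31.6 CPM in Li-KO livers, against 22.6, 21.3 and 18.3 CPM in Ctl livers (log2 fold change 0.75, SE 0.14, edgeR adjusted p = 0.0153). Timm17a, one of the paralogous partners of the channel, had 47.6, 43.0 and 40.9 CPM in Li-KO livers, against 29.4, 28.8 and 34.8 CPM in Ctl livers (log2 fold change 0.50, SE 0.13, edgeR adjusted p = 0.042). The groups did not overlap for either gene. The X-linked paralogue Timm17b had 34.2, 34.3 and 30.5 CPM in Li-KO livers, against 30.2, 22.0 and 27.1 CPM in Ctl livers, apart but not called (log2 fold change 0.32, SE 0.15). Timm23, the core channel subunit, had 8.73, 7.77 and 7.12 CPM in Li-KO livers, against 7.93, 7.45 and 7.61 CPM in Ctl livers, and the ranges lay across each other (log2 fold change 0.04, SE 0.17). Timm21, an accessory subunit, had 17.3 ± 1.09 CPM in Li-KO livers and 16.3 ± 1.14 CPM in Ctl livers.

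The import motor showed a rise in its nucleotide exchange factor Grpel1 and none that passed the test in its chaperone. Grpel1 (ENSMUSG00000029198.3, chromosome 5, 36464998 to 36474080, plus strand) had 174, 179 and 168 CPM in Li-KO livers, against 119, 110 and 125 CPM in Ctl livers (log2 fold change 0.56, SE 0.11, edgeR adjusted p = 0.0171). Hspa9, which encodes mtHsp70, had 816, 874 and 974 CPM in Li-KO livers, against 876, 763 and 908 CPM in Ctl livers (log2 fold change 0.06, SE 0.14, edgeR adjusted p = 0.805). Grpel1 thus stood apart between the groups while Hspa9 overlapped. Grpel2, the paralogue of Grpel1, had 33.9, 41.1 and 48.9 CPM in Li-KO livers, against 51.2, 35.1 and 32 CPM in Ctl livers (log2 fold change 0.07, SE 0.21). Timm44, which tethers the chaperone to the channel, had 57.4 ± 5.88 CPM in Li-KO livers and 45.2 ± 3.66 CPM in Ctl livers (log2 fold change 0.34, SE 0.13, edgeR adjusted p = 0.11). The J-domain protein gene Dnajc19 had 26.7 ± 2.22 CPM in Li-KO livers and 23.3 ± 2.52 CPM in Ctl livers, and its regulator Pam16 only 15, 8 and 16 counts in Li-KO and 12, 17 and 5 in Ctl.

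In the matrix, neither subunit of the processing peptidase passed the test. Pmpcb, the catalytic subunit, had 156, 165 and 159 CPM in Li-KO livers, against 122, 119 and 162 CPM in Ctl livers, with Ctl replicate 2 inside the Li-KO range (log2 fold change 0.25, SE 0.14). Pmpca, the substrate-binding subunit, had 102, 114 and 108 CPM in Li-KO livers, against 93.2, 87.8 and 98.7 CPM in Ctl livers (log2 fold change 0.21, SE 0.11). The chaperonin Hspd1 had 231, 293 and 358 CPM in Li-KO livers, against 318, 288 and 363 CPM in Ctl livers (log2 fold change -0.14, SE 0.18, edgeR adjusted p = 0.656). Its lid Hspe1 had 41.4, 52.0 and 61.1 CPM in Li-KO livers, against 56.1, 40.4 and 53.7 CPM in Ctl livers (log2 fold change 0.04, SE 0.18, edgeR adjusted p = 0.909). Both were lowest in replicate 0 and highest in replicate 2 among the Li-KO libraries, a spread wider than the difference between the groups. Pseudogene copies had counts of their own, so the chaperone values are uncertain: Hspd1-ps3 had 4158, 4589 and 7406 counts in Li-KO and 7307, 6403 and 7824 in Ctl, and Hspa9-ps1 had 715, 746 and 930 counts in Li-KO and 789, 651 and 666 in Ctl. Dnajc19-ps likewise had 389, 532 and 684 counts in Li-KO and 493, 387 and 601 in Ctl.

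Levels of different genes were compared per transcript length, as FPKM, fragments scaled to transcript length and library size. Hspa9 was the most abundant import transcript, at 207 ± 10.8 FPKM in Li-KO livers and 211 ± 20.5 FPKM in Ctl livers. Next came Hspd1 at 91.2 ± 14.9 FPKM in Li-KO livers and 107 ± 13.2 FPKM in Ctl livers, and Timm8b at 103 ± 13.3 FPKM in Li-KO livers and 71.7 ± 13.3 FPKM in Ctl livers. In Li-KO livers the Hspd1 and Timm8b ranges overlapped, so that their order there was not set beyond the spread. The genes with the largest fold changes were among the less abundant, Tomm40l at 9.63 ± 1.83 FPKM in Li-KO livers and 3.85 ± 1.18 FPKM in Ctl livers, and Tomm5 at 13.0 ± 2.60 FPKM in Li-KO livers and 5.87 ± 1.65 FPKM in Ctl livers. The lowest protein-coding genes that were tested were Pam16, at 0.690 ± 0.203 FPKM in Li-KO livers and 0.556 ± 0.308 FPKM in Ctl livers, and Timm8a1, at 1.90 ± 0.802 FPKM in Li-KO livers and 1.84 ± 0.336 FPKM in Ctl livers.

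**Figure D3:**
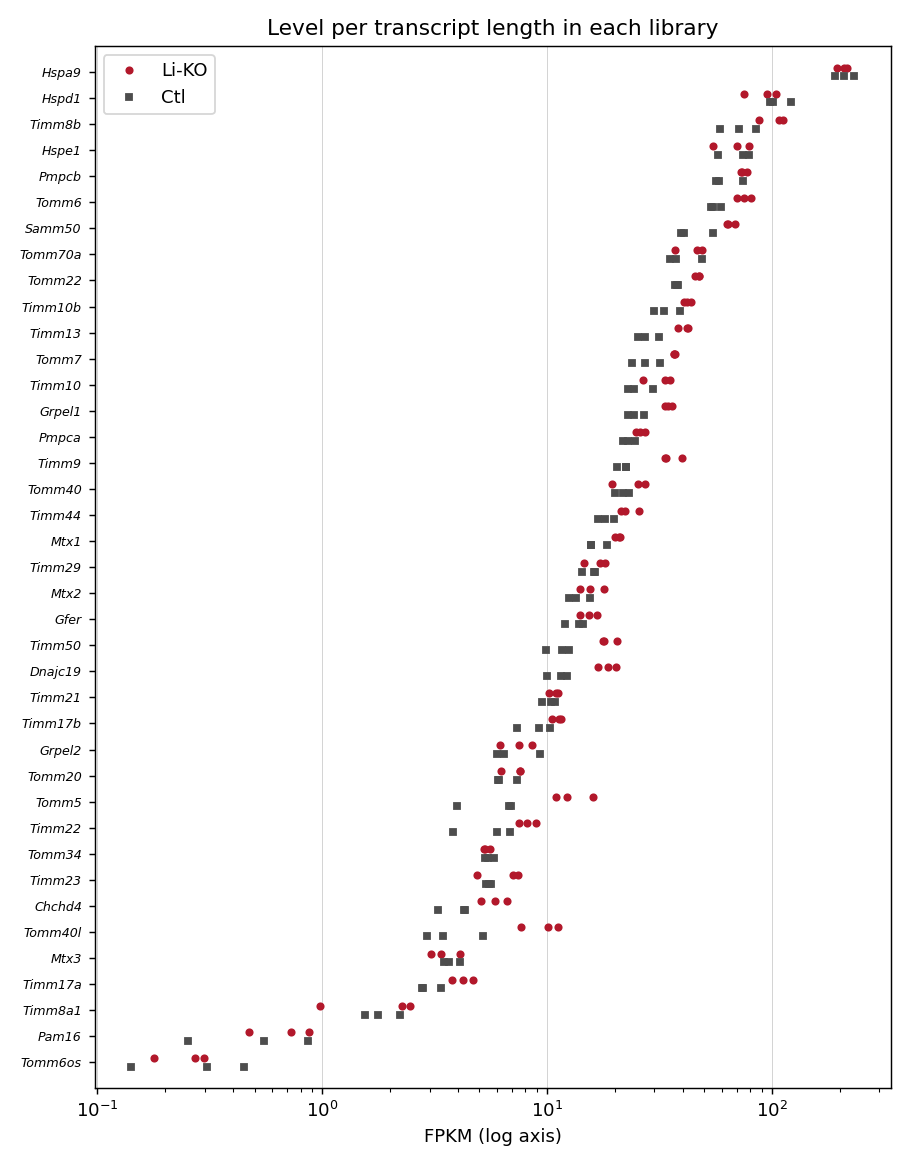
FPKM of the 39 tested import genes in each library on a log axis, ordered from high to low, with Li-KO as red circles and Ctl as grey squares. Hspa9 stands at the top and Tomm6os at the bottom; Tomm20l and Timm8a2, which were not tested, are not drawn.

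Partners were also compared as ratios of their FPKM within each library. Of 10 ratios computed, 4 had every Li-KO library above every Ctl library, and no test was made on them. Each of the 4 sets a called gene over a partner that was not called, so it restates that call. No share over other gene pairs was computed. Tomm40l over Tomm40 was 0.442, 0.372 and 0.390 in Li-KO livers, against 0.240, 0.146 and 0.149 in Ctl livers. Grpel1 over Hspa9 was 0.177, 0.171 and 0.155 in Li-KO livers, against 0.117, 0.119 and 0.116 in Ctl livers. Timm50 over Timm23 was 2.42, 2.92 and 3.61 in Li-KO livers, against 2.24, 2.18 and 1.79 in Ctl livers, and Timm9 over Timm10 was 1.01, 1.13 and 1.25 in Li-KO livers, against 0.988, 0.836 and 0.759 in Ctl livers. As ratios of CPM only 3 of the 10 were apart, since Timm9 over Timm10 met, at 1.593 in Li-KO replicate 0 and 1.594 in Ctl replicate 0. The Ctl values of Grpel1 over Hspa9 lay within a narrow band, while those of Timm50 over Timm23 nearly met the lowest Li-KO value. Hspe1 over Hspd1 overlapped, at 0.729, 0.736 and 0.765 in Li-KO livers, against 0.735, 0.590 and 0.648 in Ctl livers, as did the ratios of Timm17a to Timm17b, Grpel1 to Grpel2, Pmpca to Pmpcb, Timm13 to Timm8b and Chchd4 to Gfer.

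**Figure D4:**
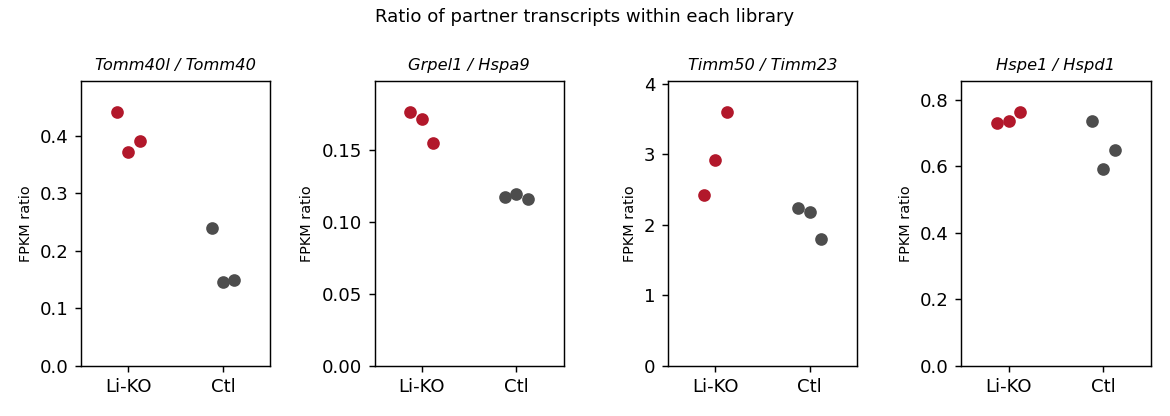
Ratio of FPKM between partner transcripts in each library, as points with axes from 0. Tomm40l over Tomm40, Grpel1 over Hspa9 and Timm50 over Timm23 were higher in all 3 Li-KO libraries than in the 3 Ctl libraries, and Hspe1 over Hspd1 overlapped.

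Short genes as a whole were higher in Li-KO livers. Over protein-coding genes with a mean of at least 1 CPM, the median log2 fold change was 0.26 for the 703 genes of up to 1500 exonic bases, 0.15 for 2487 genes up to 3000 bases, 0.04 for 3426 genes up to 5000 bases and -0.10 for 5325 longer genes. The import genes of at least 1 CPM had medians above that of their class in each: 0.50 for 8 genes, 0.27 for 6, 0.21 for 15 and 0.38 for 8. By this measure Tomm5, Tomm6, Tomm7 and Timm13 were in the shortest class and Tomm40l, Chchd4, Samm50 and Timm17a in the longest. Exonic length counts every annotated exon of a gene, not the transcript measured. A gene can therefore sit in a longer class than its liver transcript, also where the trend with length was removed. When each library's trend with length was taken out, a setting added after the values were seen, 8 import genes were called higher and 0 lower, where 4.34% of all genes were called higher and 5.29% lower. The calls that ended were Tomm6 (log2 fold change 0.27, edgeR adjusted p = 0.205), Tomm7 (0.25, adjusted p = 0.22), Timm13 (0.37, adjusted p = 0.104) and Timm22 (0.47, adjusted p = 0.0737). Tomm5 had a log2 fold change of 1.07 (adjusted p = 0.044) and Tomm40l of 1.35 (adjusted p = 0.0125) in that fit. Whether RNA or library quality differed between the groups was not tested.

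**Figure D5:**
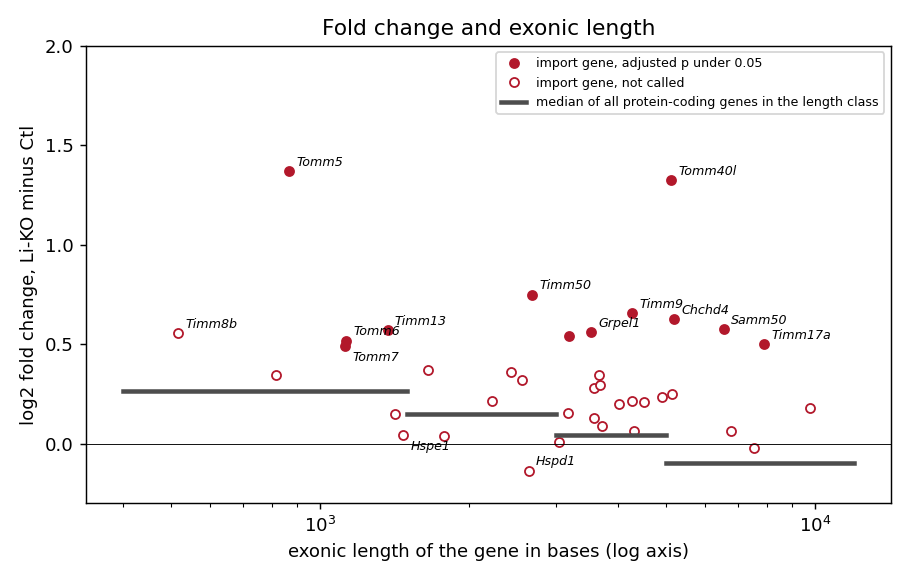
Log2 fold change, Li-KO minus Ctl, of the 38 protein-coding import genes tested against their exonic length (log axis), with the median of all protein-coding genes in each length class as a grey bar. The class medians fall with length, and the import genes lie mostly above them, Tomm40l and Tomm5 furthest.

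Promoter sequence was available for 36 of the 41 genes, as 250 bases before to 50 after the start from RefSeq on GRCm38.p6, and was searched on both strands for 5 motifs. TTCNNGAA, a short pattern that stands here for the heat shock element, was in 7 of the 36 (19.4%). It was in 8.40% of 27025 promoters and 7.05% of the 10875 promoters of genes tested here. Timm8a2 and Tomm20l are among the 36 but were not tested, so the shares of genes tested are not on quite the same base. The 7 were Hspe1, Timm10, Timm13, Timm8a2, Timm9, Tomm20 and Tomm22, of which Timm9 and Timm13 rose. The KLF-type box CCCCNCCC was in 10 of the 36 (27.8%), against 32.9% of all promoters and 48.1% of those of genes tested, and among 10 called genes with a promoter only Timm50 and Tomm6 held it. The NRF-1 core CGCATGCG was in 1, Timm13 (2.78%, against 3.70% of genes tested). CCAAT was in 11 (30.6%, against 38.6%), 5 of them among the 10 called genes, and the motif AAGGTCA in 4 (11.1%, against 3.40%), none of them called. The median GC content was 59.2% over the 36 and 60.7% over genes tested. A match describes letters, not binding. The promoters printed are those of Tomm5, which had the largest change and no match to any of the 5, of Timm50 and Timm13, which rose, and of the chaperonin lid Hspe1, which did not pass the test. Capitals mark the heat shock element, the NRF-1 core and the KLF-type box, and each sequence is read 5′ to 3′ on the strand of its gene.
Tomm5, chr4:45108064-45108363, minus strand: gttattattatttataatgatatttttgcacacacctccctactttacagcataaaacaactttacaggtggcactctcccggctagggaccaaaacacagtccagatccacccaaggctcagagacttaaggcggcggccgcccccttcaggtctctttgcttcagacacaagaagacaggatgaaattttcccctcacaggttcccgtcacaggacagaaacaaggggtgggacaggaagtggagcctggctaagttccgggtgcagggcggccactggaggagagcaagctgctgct
Timm50, chr7:28311997-28312296, minus strand: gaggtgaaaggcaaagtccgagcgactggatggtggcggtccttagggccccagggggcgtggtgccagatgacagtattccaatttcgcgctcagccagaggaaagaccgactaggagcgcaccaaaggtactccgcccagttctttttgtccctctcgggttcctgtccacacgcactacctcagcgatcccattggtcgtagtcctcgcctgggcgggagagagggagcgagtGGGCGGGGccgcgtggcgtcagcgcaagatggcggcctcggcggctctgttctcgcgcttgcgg
Timm13, chr10:80900920-80901219, minus strand: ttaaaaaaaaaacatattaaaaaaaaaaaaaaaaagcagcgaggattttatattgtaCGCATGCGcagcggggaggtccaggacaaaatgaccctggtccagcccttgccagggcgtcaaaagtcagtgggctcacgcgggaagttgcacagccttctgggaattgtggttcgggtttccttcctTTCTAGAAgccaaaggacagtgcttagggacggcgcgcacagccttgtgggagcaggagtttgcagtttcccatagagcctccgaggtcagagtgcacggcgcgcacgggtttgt
Hspe1, chr1:55087898-55088197, plus strand: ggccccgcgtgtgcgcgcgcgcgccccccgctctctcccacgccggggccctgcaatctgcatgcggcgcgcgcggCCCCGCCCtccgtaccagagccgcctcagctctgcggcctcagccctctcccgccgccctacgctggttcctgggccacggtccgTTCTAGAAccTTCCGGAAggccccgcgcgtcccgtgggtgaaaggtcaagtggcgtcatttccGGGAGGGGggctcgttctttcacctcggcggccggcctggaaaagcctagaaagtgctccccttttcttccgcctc
In Timm13 the capitals are the NRF-1 core and, nearer to the start, the heat shock element. Timm50 holds 1 KLF-type box, on the opposite strand. Hspe1, which had the most matches of the 4 shown, holds 2 matches to TTCNNGAA close together between 2 KLF-type boxes. Whether they form 1 element was not tested.

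Other steps of the route were described from lists of genes outside the import set. In the list of inner membrane insertion and cristae organisation, 5 of 16 rose and 0 fell (median log2 fold change 0.32), where 6.11% of all genes tested were called higher and 5.9% lower. 2410015M20Rik, listed in RefSeq as Micos13, a cristae junction subunit, had 94.4 ± 0.605 CPM in Li-KO livers and 48.4 ± 7.12 CPM in Ctl livers (log2 fold change 0.96, SE 0.13, edgeR adjusted p = 0.00551). Oxa1l, the inner membrane insertase, had 56.3 ± 2.43 CPM in Li-KO livers and 40.1 ± 2.60 CPM in Ctl livers (adjusted p = 0.0298), and Romo1, a small inner membrane protein, had 41.0 ± 6.49 CPM in Li-KO livers and 25.8 ± 2.80 CPM in Ctl livers (adjusted p = 0.0302). The other 2, Phb and Phb2, the prohibitins, were named after their values were seen. Among porins and insertases of the outer membrane, 2 of 5 rose, beside 6.11% of all genes: Vdac2 had 140 ± 4.94 CPM in Li-KO livers and 88.8 ± 11.6 CPM in Ctl livers (adjusted p = 0.0173), and Vdac3 had 25.3 ± 2.77 CPM in Li-KO livers and 15.9 ± 3.06 CPM in Ctl livers (adjusted p = 0.0389).

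Of 18 substrates of the disulfide relay, 5 rose and 0 fell (median log2 fold change 0.37), beside 6.11% of all genes called higher and 5.9% lower. The list holds 8 genes of up to 1500 exonic bases, a class in which 18.5% of protein-coding genes were called higher. The DESeq2 Wald test called 6 of the 18 higher, beside its 10.3% of all genes. Ndufs5, a complex I subunit of 17.7 ± 1.17 CPM in Li-KO livers and 7.56 ± 1.49 CPM in Ctl livers, had a log2 fold change of 1.23 (SE 0.18, edgeR adjusted p = 0.00711). The assembly factor Coa6 (0.73, adjusted p = 0.0429) and the complex IV subunit Cox6b1 (0.50, adjusted p = 0.0466) rose by less, as did Uqcrh and Ndufb7, named after their values were seen. The calls of Romo1, Coa6 and Cox6b1 ended with the length trend taken out. Phb, Phb2, Uqcrh (edgeR adjusted p = 0.0466) and Ndufb7 (edgeR adjusted p = 0.0497) were not followed in that fit or with a library left out.

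Among 15 proteases and processing peptidases other than Pmpca and Pmpcb, 1 rose and 1 fell, beside 6.11% and 5.9% of all genes. Afg3l2, a subunit of the m-AAA protease, rose, with 138 ± 11.3 CPM in Li-KO livers and 92.1 ± 5.14 CPM in Ctl livers (log2 fold change 0.58, SE 0.11, edgeR adjusted p = 0.0182). Lactb, a serine protease of the intermembrane space, fell, with 50.0 ± 5.92 CPM in Li-KO livers and 71.5 ± 2.27 CPM in Ctl livers (log2 fold change -0.52, SE 0.12, edgeR adjusted p = 0.0329). Of 8 other mitochondrial chaperones, Trap1 and Clpb among them, 0 were called in either direction by edgeR or the DESeq2 Wald test, with 1 higher at an unadjusted p under 0.05 in edgeR. Of 11 cytosolic chaperones that accompany precursors, 0 rose and 1 fell in both tests, with no other at an unadjusted p under 0.05: Ubqln2, a ubiquilin, had 9.86 ± 3.75 CPM in Li-KO livers and 26.4 ± 1.72 CPM in Ctl livers (log2 fold change -1.42, SE 0.27, edgeR adjusted p = 0.0168). Of 13 protein genes of the mitochondrial genome, 9 were listed at 0 in all 6 libraries and 3 were tested with 0 called, so the table does not bear on them.

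Among 15 regulators of mitochondrial biogenesis and stress, 2 rose and 2 fell, beside 6.11% of all genes called higher and 5.9% lower. The DESeq2 Wald test called 4 higher and 2 lower, beside its 10.3% and 9.97% of all genes. Esrra, an orphan nuclear receptor that drives mitochondrial genes, had 78.1 ± 10.2 CPM in Li-KO livers and 39.0 ± 2.16 CPM in Ctl livers (log2 fold change 1.0, SE 0.13, edgeR adjusted p = 0.00446). Its coactivator Ppargc1b had 7.99 ± 1.18 CPM in Li-KO livers and 16.0 ± 3.38 CPM in Ctl livers (log2 fold change -1.0, SE 0.21, edgeR adjusted p = 0.021). Ppargc1a, another coactivator of Esrra, named after its value was seen, had 91.7, 35.9 and 53.7 CPM in Li-KO livers, against 38.4, 20.05 and 16.9 CPM in Ctl livers, which overlapped in 1 library, and was not called (log2 fold change 1.27, SE 0.39, edgeR adjusted p = 0.0678). Atf4 and Atf5, factors of the stress response that in other cells includes import chaperones, lay on opposite sides: Atf4 had 178 ± 35.8 CPM in Li-KO livers and 113 ± 8.87 CPM in Ctl livers (adjusted p = 0.0336), and Atf5, named after its value was seen, had 44.0 ± 4.08 CPM in Li-KO livers and 70.4 ± 17.9 CPM in Ctl livers (adjusted p = 0.0452). The call of Atf4 ended with the length trend taken out, and Atf5 was not followed in that fit or with a library left out. With 1 library left out at a time, 2410015M20Rik, Ndufs5 and Esrra kept their call in all 6 fits. The calls of Afg3l2, Lactb, Oxa1l, Romo1, Vdac2, Vdac3, Ubqln2, Coa6, Cox6b1, Ppargc1b and Atf4 each ended in at least 1 of these fits, all of them without Ctl replicate 1, and their direction was kept in all 6.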

How the data were processed

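Total RNA from liver was made into stranded total RNA libraries, per the labels' protocols. Reads were processed with STAR, Cufflinks and Cuffdiff on mm10, per the submitters' processing notes; no source used here gives options, gene annotation or strandedness. The deposited table holds estimated counts, not normalized, per the file headers (3.29% not whole within 1e-06), and FPKM scaled by the authors with Cuffdiff. Its KO and WT conditions were taken as Li-KO and Ctl from the sample titles.

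Counts were rounded. The 77 genes that Cuffdiff skipped as too abundant were left out. Symbols were matched for 48051 IDs; exons came from GENCODE release M21. edgeR 4.0.16 (R 4.3.3) was used with filterByExpr (minimum count 10, total 15), TMM scaling, group as the only term and a two-sided quasi-likelihood test; it was tested on simulated data. CPM use the same scaling. Alternatives were DESeq2 1.42.0 (its size factors, and its Wald test), no filter, limma 3.58.1 on log2(FPKM + 1), the replicate block, each library left out and, added after seeing the data, offsets that remove each library's length trend. The genes and lists were chosen with earlier results of these data known. Named genes were all import genes, Klf15 and up to 3 called genes per other list with the smallest p, marker lists left out. Trap1, Clpb, Phb, Phb2, Uqcrh, Ndufb7, Atf5 and Ppargc1a were chosen after their values were seen. So were Tdo2, Sox9, Nr1i3, Epcam, Spp1, Alb, Cyp2e1, Gm21981 and the pseudogenes.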

Additional observations from a re-analysis of the deposited data

How the results depend on the processing

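All 12 increases kept their direction under the 12 alternatives. The DESeq2 Wald test called 1595 genes higher and 1551 lower over the table and 14 import genes, adding Tomm22 (adjusted p = 0.0206) and Timm8b (0.0206). limma on log2(FPKM + 1) called 870 genes higher and 939 lower over the table. It called 8 import genes, losing Timm22, Chchd4, Samm50, Tomm7 and Timm17a and adding Dnajc19 (0.68, adjusted p = 0.0191). Without the filter edgeR called 1135 genes higher and 1142 lower over the table. It then called 12 import genes, with Timm8b (adjusted p = 0.0425) in place of Timm22 (adjusted p = 0.0564). With the length trend taken out the median of the import genes was 0.21.

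With 1 library left out at a time, 198 to 1102 genes were called higher and 234 to 1447 lower, 0 to 9 import genes were called higher and 0 lower, the median of the import genes was 0.23 to 0.32, and Klf15 had a log2 fold change of -2.44 to -1.91. Without Ctl replicate 1 edgeR called 0 import genes, with 14 higher and 0 lower at an unadjusted p under 0.05. Every left-out library took the call of some import gene: 11 lost it without Li-KO replicate 1 and 11 without Ctl replicate 2, against 3 without Li-KO replicate 2. Over all genes, 226, 255 and 1102 were called higher in those fits, and 198 without Ctl replicate 1. The cause of the lost calls was not tested.

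Deviations of same-numbered libraries correlated at 0.0183, 0.0813 and 0.0669, so the numbers were not taken to pair them. With the replicate block in edgeR, 956 genes were called higher and 1015 lower, and 9 import genes higher, without Timm22, Chchd4 and Timm17a. Depth limits Pam16, Timm8a1 and Tomm6os, whose standard errors were the largest of the genes tested in the set.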
